A study of Mus musculus with 26 samples.

Results

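*Kcnip4* (TCONS_00081062) and *Deup1* (TCONS_00105141) are 2 of the 38540 transcripts counted in single mouse germinal vesicle (GV) oocytes, and they were chosen on their own values in the contrast of the oocyte stages, as transcripts with clear counts in the earlier stage and almost none in the later one. Their levels in the stages are therefore given as a description with no test. The study asked how RNA differs between GV oocytes whose chromatin does not surround the nucleolus (NSN) and GV oocytes in which it does (SN). It measured polyadenylated RNA of single fully-grown oocytes from 2 wildtype C57Bl6/Babr mice, both aged 12 weeks. The letters C and D in the oocyte names are taken here to mark the mice, which the labels do not spell out, and every comparison between mice rests on that reading. Scored by Hoechst staining of the nucleus, and after the study had left out libraries with few reads and outliers, the count table holds 9 NSN oocytes (5 of mouse C, 4 of mouse D), 16 SN oocytes (9 of mouse C, 7 of mouse D) and 1 intermediate oocyte of mouse D with a partial ring of chromatin. All oocytes share strain, genotype, age and treatment, cumulus cells had been removed from each, and each oocyte is 1 library.

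Near the end of growth the mouse oocyte silences transcription while its chromatin condenses around the nucleolus, so that later steps rely on stored RNA. *Kcnip4* encodes a Kv channel-interacting protein, a calcium-binding EF-hand protein that serves as an auxiliary subunit of Kv4 potassium channels and is best known from neurons. *Deup1* encodes a core protein of the deuterosome, the structure on which multiciliated cells build many centrioles at once, and it is a paralog of *Cep63*, which acts in centriole duplication in cycling cells.

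In GENCODE annotation of GRCm38, *Kcnip4* (ENSMUSG00000029088) is a protein-coding gene on the minus strand of chromosome 5, from 48389502 to 49524907, a span of 1135406 bases with 8 annotated transcripts. Merged over these, its exons cover 3627 bases. *Deup1* (ENSMUSG00000039977) is a protein-coding gene on the minus strand of chromosome 9, from 15559864 to 15627933, a span of 68070 bases with 5 annotated transcripts and 3311 exonic bases. The counted features come from an oocyte transcriptome assembly whose own start sites were not used here, so the promoters shown are those of RefSeq (GRCm38.p6), from 250 bases before to 50 bases after an annotated start. For each gene 1 of its 2 RefSeq windows is printed, with CG dinucleotides in capitals, to show the letters behind the base composition given after it, which differs between windows of the same gene. The *Kcnip4* window is chr5:49285610-49285909 and the *Deup1* window is chr9:15627797-15628096, both read 5′ to 3′ on the minus strand.
Kcnip4: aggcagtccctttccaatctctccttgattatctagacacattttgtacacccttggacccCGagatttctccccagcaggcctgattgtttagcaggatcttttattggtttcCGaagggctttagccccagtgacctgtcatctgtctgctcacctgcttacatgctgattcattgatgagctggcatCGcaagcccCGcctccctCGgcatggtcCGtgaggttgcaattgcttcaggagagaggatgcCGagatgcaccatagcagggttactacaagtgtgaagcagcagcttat
Deup1: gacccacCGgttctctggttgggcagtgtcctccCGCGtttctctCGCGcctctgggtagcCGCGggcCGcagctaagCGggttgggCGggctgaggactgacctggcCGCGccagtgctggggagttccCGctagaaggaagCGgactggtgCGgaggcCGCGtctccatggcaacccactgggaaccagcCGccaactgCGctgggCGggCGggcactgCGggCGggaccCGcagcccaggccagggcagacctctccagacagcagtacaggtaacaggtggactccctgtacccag

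The printed *Kcnip4* window held 7 CG dinucleotides and 51% G or C, and the other *Kcnip4* window (chr5:48599633-48599932) held 7 and 59.7%. The printed *Deup1* window held 24 CG dinucleotides and 69.3% G or C, whereas the other *Deup1* window (chr9:15628257-15628556) held 2 and 39.3%, so the order of the genes depends on the window. Over all 32851 RefSeq windows of this length the median was 7. The *Deup1* window with 24 CG dinucleotides had more of them than 80% of all windows. Of the motifs searched on both strands, GGGCGG was found 4 times in the printed *Deup1* window and in none of the other 3 windows, against 35.7% of all windows with a match. CCAAT was found 2 times in the printed *Kcnip4* window and 0 times in the other, and 0 times in the printed *Deup1* window and 1 time in the other, against 37.4% of all windows. TATAAA was in none of the 4 windows of these genes, against 13.6% of all windows. CANNTG, which reads the same way on both strands, was found 4 and 3 times in the printed and the other *Kcnip4* window and 2 and 0 times in those of *Deup1*, against 72.3% of all windows.

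The libraries of the NSN oocytes held 1886716 to 2983344 counts (median 2690652), those of the SN oocytes 1358383 to 3647827 (median 2069699), and that of the intermediate oocyte 2163635. Levels are given as CPM, the counts per 1000000 counts of the library. A count of 0 allows up to 3 counts, which is 0.822 to 2.21 CPM in a single SN library and 0.0826 CPM over the 16 SN libraries together. Counts are reads without molecular identifiers, so these limits and all intervals cover counting error only. As defining oocyte markers, *Zp3*, *Nobox* and *Oosp1* could be named in the count table out of 17 listed genes, and each had at least 438 counts in every NSN and SN oocyte.

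*Kcnip4* was counted in every NSN oocyte. In mouse C it had 16 counts in oocyte C-3, 22 in C-6, 16 in C-7, 5 in C-8 and 8 in C-12, and in mouse D it had 30 in D-11, 44 in D-14, 15 in D-30 and 18 in D-34. These counts correspond to 1.68 to 17.3 CPM, with a median of 5.62 and a mean of 7.76 ± 5.39 CPM (SD, n = 9). Oocytes D-11 and D-14 stood highest, at 15.9 and 17.3 CPM, and C-8 stood lowest. In SN oocytes *Kcnip4* had 1 count in C-13 and 1 count in D-12, and it had 0 counts in the other 14. These 2 oocytes had the second and the third largest SN libraries, with 3576069 and 3332029 counts, while the largest, C-14 with 3647827 counts, had none. The intermediate oocyte D-15 had 1 count, or 0.462 CPM, below the lowest NSN oocyte and above every SN oocyte, though a single count has an interval that covers both. As counted, the NSN and SN values did not overlap, since the lowest NSN oocyte was at 1.68 CPM and the highest SN oocyte at 0.3 CPM. In 5 of the 16 SN libraries, however, a count of 0 allows a level above 1.68 CPM, so separation is not shown for these. *Kcnip4* was chosen on this contrast, and the share of all transcripts without overlap is not given here.

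*Deup1* was also counted in every NSN oocyte. It had 20 counts in C-3, 8 in C-6, 3 in C-7, 18 in C-8 and 2 in C-12, and 10 in D-11, 30 in D-14, 14 in D-30 and 38 in D-34. The levels ran from 0.805 to 14.1 CPM, with a median of 5.3 and a mean of 6.05 ± 4.51 CPM (SD, n = 9). Oocyte D-34 stood highest, and C-12 and C-7 stood lowest at 0.805 and 1.01 CPM. In SN oocytes *Deup1* had 3 counts in C-16, or 1.3 CPM, and 0 counts in the other 15, and the intermediate oocyte had 0. The stages overlapped in this transcript, because C-16 lay above C-7 and C-12, and 7 of the 9 NSN oocytes lay above every SN oocyte. No SN oocyte had counts of both transcripts, and 13 of the 16 had counts of neither.

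**Figure D1:**
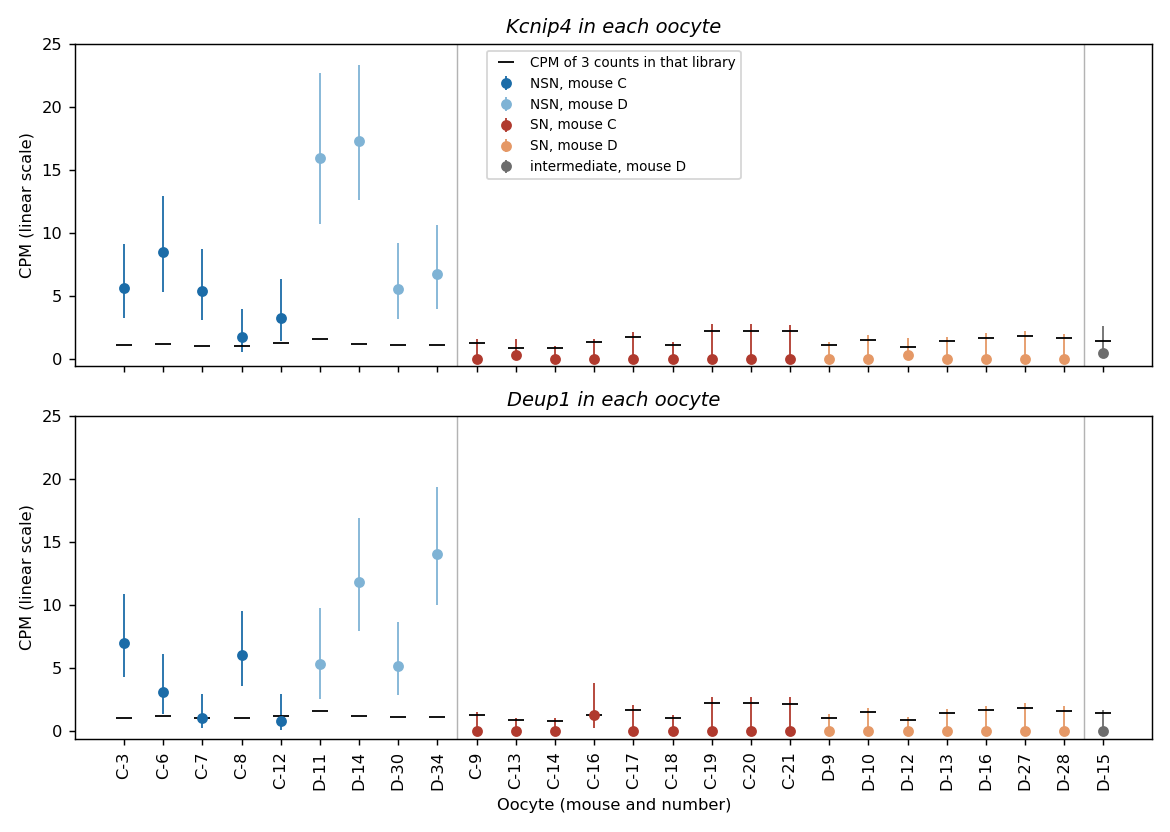
Level of each transcript in each oocyte (CPM, linear scale), in the order NSN, SN, intermediate from left to right, with exact 95% Poisson intervals as bars and the CPM of 3 counts in that library as a black dash. *Kcnip4* lies at 1.68 to 17.3 CPM in the NSN oocytes and at most 0.3 CPM in the SN oocytes, and the only SN oocyte with *Deup1* counts, C-16, lies at 1.3 CPM.

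Summed over oocytes, *Kcnip4* had 174 counts in NSN and 2 in SN oocytes, or 7.34 CPM (exact 95% Poisson interval 6.29 to 8.52) against 0.0551 CPM (0.00667 to 0.199). The SN level was 0.75% of the NSN level (95% interval 0.0901 to 2.75%, exact binomial on the summed counts). *Deup1* had 143 counts in NSN and 3 in SN oocytes, or 6.04 CPM (5.09 to 7.11) against 0.0826 CPM (0.017 to 0.241). Its SN level was 1.37% of the NSN level (0.279 to 4.08%). The pooled levels of the pair were thus close to each other in both stages, and the intervals of their SN shares overlapped widely. These levels are per library and not per transcript length, so they do not rank the transcripts by abundance.

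The same order of the stages was found within each mouse. In mouse C, pooled *Kcnip4* was 4.83 CPM in NSN and 0.0484 CPM in SN oocytes, or 1% of the NSN level (95% interval 0.025 to 5.78%), and in mouse D it was 10.9 and 0.0639 CPM, or 0.586% (0.0147 to 3.33%). Pooled *Deup1* was 3.68 CPM in NSN and 0.145 CPM in SN oocytes of mouse C, or 3.95% (0.789 to 12.2%). In mouse D it was 9.37 CPM in NSN oocytes with no count in 7 SN oocytes, or 0% of the NSN level (0 to 2.56%). Across all tested transcripts, 2245 of 16657, or 13.5%, were called between NSN and SN oocytes with edgeR's quasi-likelihood test (adjusted p under 0.05), and 8.07% were called as lower in SN. Of the calls, 40.1% were higher in SN under TMM scaling and 27% under scaling by library size alone. Both transcripts were among those called as lower, which their choice on this contrast had fixed. The filter of at least 3 counts in at least 9 oocytes was met by *Kcnip4* through the 9 NSN oocytes alone, and by *Deup1* through 8 NSN oocytes and C-16.

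What a zero can show differs between the transcripts. At the pooled NSN level of *Kcnip4*, an SN library of these sizes would hold 9.98 to 26.8 counts, and all 16 together 267 counts, against the 2 found. At the level of the lowest NSN oocyte, C-8, a single SN library would hold 2.28 to 6.14 counts, and 5 of the 16 SN libraries have a limit of 3 counts that lies above that oocyte's level. At the pooled NSN level of *Deup1*, an SN library would hold 8.2 to 22 counts, and all 16 together 219. At the level of the lowest NSN oocyte, C-12, a single SN library would hold 1.09 to 2.94 counts, fewer than 3 in each of the 16. No single SN library was thus deep enough to separate a zero of *Deup1* from the level of C-12, whereas the 16 libraries together would hold 29.2 counts at that level against 3 found. The intermediate library would hold 15.9 counts of *Kcnip4* and 13.1 of *Deup1* at the pooled NSN levels, and it held 1 and 0.

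Few transcripts of this level were as rarely counted in SN oocytes. Of 4463 other transcripts within a factor of 2 of the pooled NSN level of *Kcnip4*, 84% had a count in all 16 SN oocytes, and 4 had a count in at most 2 of them, as *Kcnip4* did. Of 4377 other transcripts within a factor of 2 of *Deup1*, 77.4% had a count in all 16, and 1 had a count in at most 1. The median ratio of the SN to the NSN level was 0.912 among the former and 0.901 among the latter. Among the 14486 transcripts with at least 50 counts over the NSN oocytes, *Kcnip4* had the fifth lowest and *Deup1* the ninth lowest ratio. The 3 transcripts with no SN count at all had 51 to 58 counts over the NSN oocytes, and 1 of them carries the symbol *Hdac11*, a histone deacetylase, named after its values were seen. With limits set at its own lowest NSN and highest SN count, *Kcnip4* was the only transcript of the table with at least 5 counts in every NSN oocyte and at most 1 in every SN oocyte. This follows in part from where the limits were set. With limits of at least 2 and at most 3 counts, which are the values of *Deup1* itself, there were 20 such transcripts. All of these ranks use the contrast on which both were chosen.

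**Figure D2:**
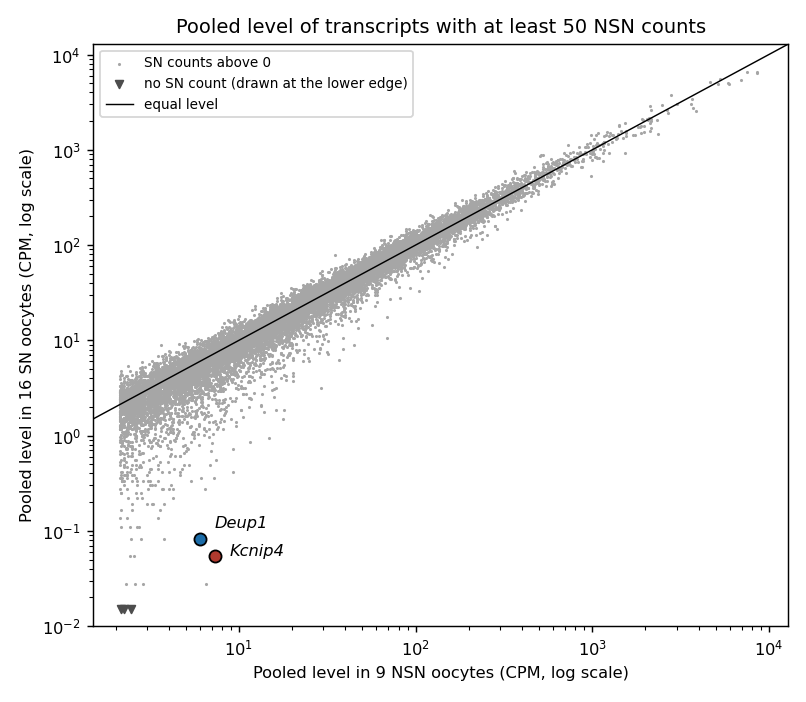
Pooled CPM in 16 SN oocytes against pooled CPM in 9 NSN oocytes (both log scales) for the 14486 transcripts with at least 50 NSN counts, with the line of equal level. *Kcnip4* (7.34 and 0.0551 CPM) and *Deup1* (6.04 and 0.0826 CPM) lie far below the line, and 3 transcripts with no SN count are drawn as triangles.

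**Figure D3:**
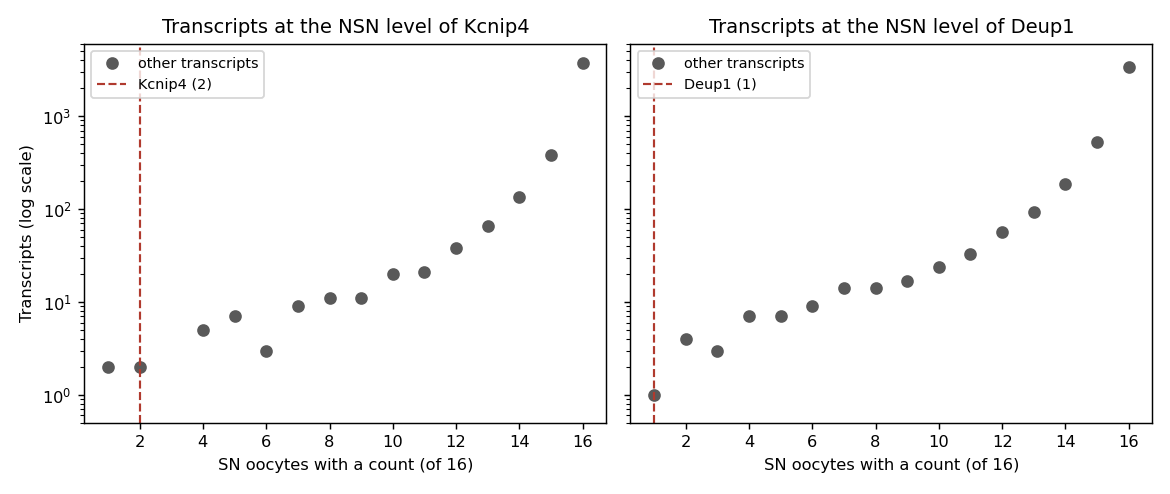
Number of transcripts (log scale) by the number of SN oocytes with a count, among transcripts within a factor of 2 of the pooled NSN level of *Kcnip4* (left, 4463) and *Deup1* (right, 4377). Most had a count in all 16 SN oocytes, while the dashed lines mark *Kcnip4* at 2 and *Deup1* at 1.

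The NSN oocytes differed widely among themselves in both transcripts. The highest NSN level was 10.3 times the lowest for *Kcnip4* and 17.5 times for *Deup1*. The standard deviation was 69.4% of the mean for *Kcnip4*, against a median of 38.2% among the transcripts of like level, 95.1% of which varied less. For *Deup1* it was 74.5%, against a median of 41.2%, and 94.9% varied less. The variance of the counts, not scaled for depth, was 7.15 times their mean for *Kcnip4* and 9.2 times for *Deup1*. Counting error alone gives 1, and the median among the transcripts of like level was 3.05 for *Kcnip4* and 2.87 for *Deup1*. Neither transcript had an NSN oocyte that stood apart from the other NSN oocytes by Dixon's criterion.

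The NSN oocytes were then compared between the mice, which were not used to choose the transcripts. *Kcnip4* averaged 4.88 ± 2.59 CPM (SD, n = 5) in NSN oocytes of mouse C and 11.4 ± 6.1 CPM (SD, n = 4) in those of mouse D, a difference of 6.49 CPM (two-sided exact permutation test over oocytes, p = 0.0714). *Deup1* averaged 3.6 ± 2.85 CPM (SD, n = 5) in mouse C and 9.11 ± 4.56 CPM (SD, n = 4) in mouse D, a difference of 5.51 CPM (two-sided exact permutation test, p = 0.0794). Every NSN oocyte of mouse D lay above the median of mouse C in both transcripts, and 2 of 4 lay above every oocyte of mouse C. The 126 splits of the oocytes allow a p of 0.00794 at the smallest, so neither difference passed 0.05 although the design could have reached it. When each of the 9 NSN oocytes was left out in turn, the exact permutation p for *Kcnip4* ran from 0.0357 to 0.171. The smallest was that without D-30, where the difference was 8.43 CPM, and it was the only 1 under 0.05. The mice are 1 animal each, so a difference between them cannot be told apart from any other difference between 2 animals.

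In the fit across all transcripts, *Kcnip4* was higher in NSN oocytes of mouse D by a log2 fold change of 1.18 (SE 0.455, edgeR unadjusted p = 0.014, adjusted p = 0.755), and *Deup1* by 1.32 (SE 0.631, edgeR unadjusted p = 0.0456, adjusted p = 0.793). Neither passed the adjusted threshold. Of the 16657 transcripts, 0 (0%) passed it between the mice, while 1038, or 6.23%, had an unadjusted p under 0.05. DESeq2, run without that filter on 28306 transcripts, likewise called 0, with 1186 at an unadjusted p under 0.05. Its total is larger, so the 2 counts of small p-values cannot be set side by side. A difference of the stage effect between the mice was called for 0 transcripts (0%) by edgeR, with 996, or 5.98%, at an unadjusted p under 0.05. DESeq2 called 0 of 28306, with 1122 at an unadjusted p under 0.05. Neither transcript is read from that fit, since both were chosen on the stage effect and had 0 to 3 SN counts per mouse.

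Both transcripts were compared over the same NSN oocytes to see whether they varied together. Over the 9 NSN oocytes, Pearson's r of their log2 CPM was 0.35 and Spearman's rho 0.38, and r was 0.42 without C-8 and D-14, the oocytes farthest from the median of *Kcnip4*. These points share libraries and mice, and both transcripts averaged higher in mouse D by differences that did not pass the test. The oocytes did not keep 1 order: D-11 was second highest in *Kcnip4* at 15.9 CPM and had 5.3 CPM of *Deup1*, while C-8, the lowest in *Kcnip4*, had 6.06 CPM of *Deup1*, above the median. Over the same 9 oocytes, r of *Kcnip4* with the library total was -0.65 and that of *Deup1* was -0.05, given as descriptions. The NSN libraries of mouse D were on average smaller than those of mouse C, at 2453830 and 2775327 counts (two-sided exact permutation test, p = 0.143, n = 5 and 4). With counts thinned at random to the smallest library total, mouse D was higher by 7.88 CPM in *Kcnip4* (exact permutation test, p = 0.111). In *Deup1* it was then higher by 5.01 CPM (exact permutation test, p = 0.0714). The part of depth in the difference between the mice was not tested beyond this.

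**Figure D4:**
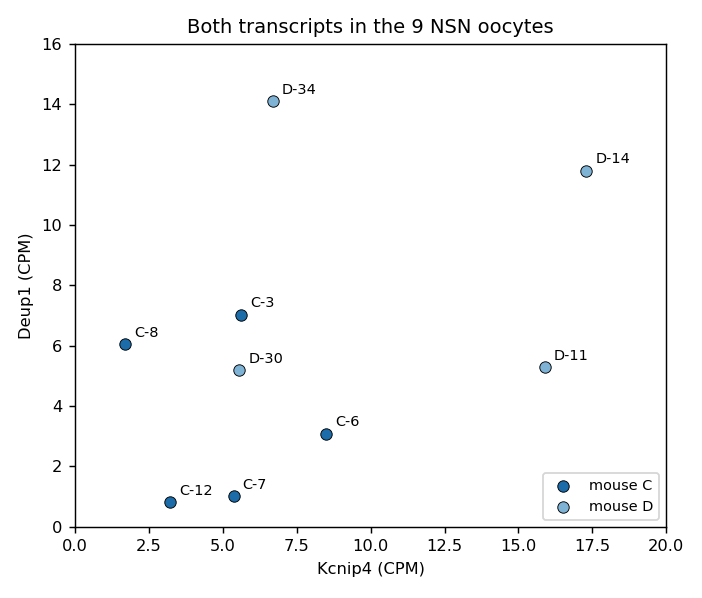
*Deup1* against *Kcnip4* (both CPM, linear scales) in the 9 NSN oocytes, coloured by mouse and labelled by oocyte. D-14 is high in both, D-11 is high in *Kcnip4* only, D-34 is high in *Deup1* only, and r of the log2 CPM was 0.35.

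A principal component analysis of the 500 most variable tested transcripts, with both members of the pair left out, placed NSN oocytes at -26.2 to -10.7 and SN oocytes at -2.52 to 21.4 on the first component, which held 36.4% of the variance. The SN oocytes nearest to the NSN oocytes were C-9 at -2.52 and D-28 at 0.0321, and neither had a count of *Kcnip4* or *Deup1*. The SN oocytes that did have counts lay within the SN range, with C-13 at 9.87, D-12 at 10.1 and C-16 at 15.4. Among the 9 NSN oocytes, r with this component was -0.75 for *Deup1* and 0.00 for *Kcnip4*. The value for *Deup1* was -0.54 without C-7 and D-14, the oocytes farthest from the median of the component, and that for *Kcnip4* was then 0.56.

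**Figure D5:**
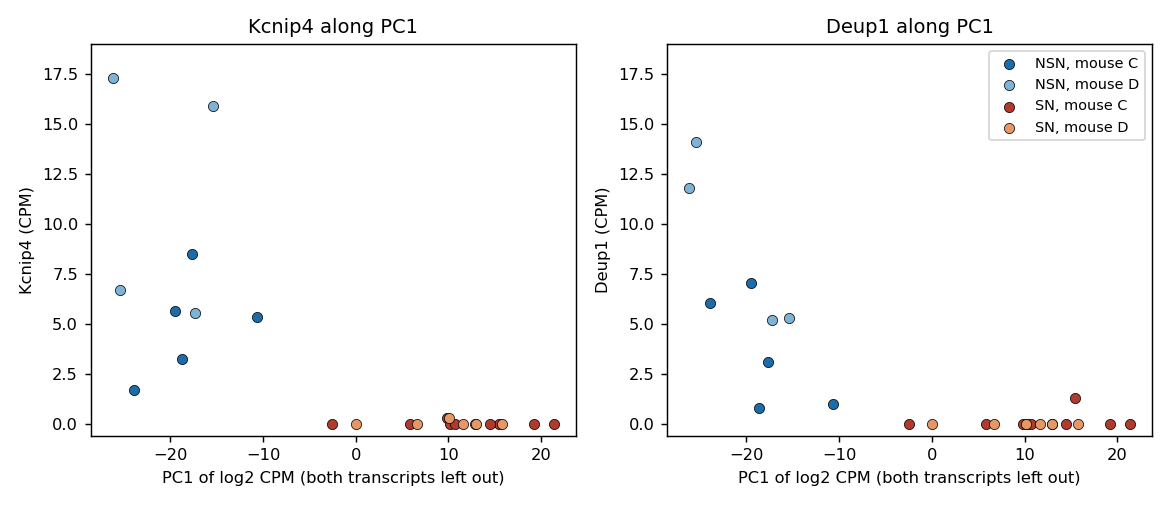
Level of *Kcnip4* (left) and *Deup1* (right) in CPM against the first principal component of the 500 most variable other transcripts, coloured by stage and mouse. NSN oocytes lie at -26.2 to -10.7, and the SN oocytes nearest to them, at -2.52 and 0.0321, have no count of either transcript.

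The transcripts whose log2 CPM followed each pattern most closely over the 25 NSN and SN oocytes were named by a rule of likeness, and they describe the stage contrast on which the pair was chosen. For *Kcnip4* these were *Hsph1*, a chaperone of the Hsp110 family (r = 0.92), *Qrsl1*, a subunit of the mitochondrial glutamyl-tRNA(Gln) amidotransferase (r = 0.92), and the unnamed TCONS_00014609 (r = 0.90), with *Cog2*, a subunit of a Golgi tethering complex, as the next with a symbol (r = 0.89). *Hsph1* had 500 to 792 counts in NSN and 137 to 462 in SN oocytes, so a like pattern over oocytes did not mean a like depth of the fall. *Qrsl1* had 10 to 23 counts in NSN and 0 to 4 in SN oocytes. For *Deup1* the closest were *Qrsl1* (r = 0.91) and the unnamed TCONS_00066568 and CUFF.4825.1 (both r = 0.90), with *Eloa*, the elongin A subunit, and *Ldhc*, a lactate dehydrogenase of germ cells, as the next with symbols (both r = 0.89). *Deup1* had rank 10 among 16656 transcripts in its likeness to *Kcnip4* (r = 0.88), and the 99th percentile of r was 0.75 for *Kcnip4* and 0.77 for *Deup1*.

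Likeness was also ranked within the 9 NSN oocytes. For *Kcnip4* the closest were the unnamed TCONS_00053876 (r = 0.98), TCONS_00095933 (r = 0.97) and TCONS_00039140 (r = 0.96), and the first with a symbol was *Nipbl*, the cohesin loader (r = 0.92). TCONS_00053876 had 78 to 175 counts in NSN and 42 to 174 in SN oocytes, overlapping over most of the range. For *Deup1* the closest were *Qrsl1* (r = 0.96), then TCONS_00071758 (r = 0.95) and *1110065P20Rik* (r = 0.95), and *Zfp64*, a zinc finger gene, was the next with a symbol (r = 0.92). The 9 oocytes are part of the 25, so the place of *Qrsl1* in both rankings is not independent. In this comparison *Deup1* ranked only 4032nd in likeness to *Kcnip4*. Over the 9 NSN oocytes, the 99th percentile of r was 0.85 for *Kcnip4* and 0.79 for *Deup1*. The named values are the largest of 16656 over only 9 oocytes, and how high r would reach among unrelated transcripts was not examined.

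Other genes of the same pathways could be followed only in part, because symbols were at hand for 511 transcripts of the table. Of 12 listed genes of the Kv4 channel complex, *Kcnip4* and *Kcnd2*, which encodes a pore-forming Kv4 subunit, could be named. *Kcnd2* had 0 to 4 counts in NSN oocytes (median 3) and 0 to 2 in SN oocytes (median 0), at 0.844 and 0.138 CPM pooled, and it did not pass the filter for a test. Of 26 listed genes of the deuterosome and of centriole duplication, *Deup1* and *Pcnt*, the pericentriolar scaffold protein pericentrin, could be named. *Pcnt* had 451 to 1128 counts in NSN and 381 to 1739 in SN oocytes. Its log2 fold change in SN against NSN oocytes was 0.52 (SE 0.118) in edgeR's fit. Of the 7 listed markers of multiciliated cells, 0 could be named, so no count of such cells' transcripts was made. Most of these symbols stand in lists that were drawn from these same oocytes, *Kcnd2* included, and they are no independent sample of the pathways. Differences of the named genes between the stages are therefore given as descriptions with no test.

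Of 12 listed markers of granulosa and cumulus cells, *Amh*, the anti-Müllerian hormone gene, could be named. It had counts in 7 of 9 NSN oocytes, from 0 in C-6 and D-34 to 31 in C-8, and in 4 of 16 SN oocytes, with at most 10 in C-9. These values meet the rule by which the study listed transcripts missing from SN oocytes. Symbols were taken from that list, so the difference of *Amh* between the stages cannot be read as a result. The NSN oocytes without an *Amh* count had 22 counts (C-6) and 18 counts (D-34) of *Kcnip4* and 8 and 38 of *Deup1*, whereas C-8, with the most *Amh*, had the fewest of *Kcnip4*, at 5 counts, and 18 counts of *Deup1*, above the NSN median. The part of granulosa or cumulus cell RNA in these levels was not tested. The SN oocyte with the most *Amh*, C-9, had no count of either.

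Sequence shared with other genes covered a small part of the annotated transcripts of both genes. The exons of the counted features themselves were not examined. Of the 3663 distinct stretches of 50 bases in the annotated transcripts of *Kcnip4*, 128, or 3.49%, also occurred in another gene on either strand. These other genes were *5730480H06Rik* and *Gm20700*, which lie on the opposite strand and overlap its exons. Such stretches were found in all 8 annotated transcripts of *Kcnip4*. Of the 3353 stretches of *Deup1*, 11, or 0.328%, also occurred in other genes, and these were spread over 496 genes and confined to a run of 60 bases near the end of 2 of its 5 annotated transcripts. No such stretch was shared with the paralogs *Kcnip1*, *Kcnip2* and *Kcnip3* or with *Cep63*. Whether the counting used strand is not given in the sources used here, so reads of *Kcnip4* and its antisense neighbours cannot be told apart where they overlap.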

How the data were processed

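Polyadenylated RNA of single GV oocytes was separated from DNA on beads, amplified and sequenced. Per the labels, the authors trimmed reads with Trim Galore and aligned them to GRCm38 with HISAT2 2.1.0, and per the study's methods SeqMonk served to count reads on features of an earlier oocyte assembly. The authors deposited unscaled counts, 1 column an oocyte. A deposited table of the authors' stage comparison (mean levels, fold changes and p-values) was not used. Stage came from the labels, the letter in an oocyte's title was read as its mouse, and 0 columns were left unused. CPM was taken by column total. Counts were tested with edgeR 4.0.16 (TMM, quasi-likelihood, at least 3 counts in at least 9 of the NSN and SN oocytes, Benjamini-Hochberg adjustment, threshold 0.05), and DESeq2 1.42.0 was an alternative. The intermediate oocyte entered no test. Log2 CPM used a prior count of 2. Single values were compared with exact permutation tests of oocytes, which measure the spread between oocytes of 2 mice. Scripts were tested on simulated data. Thinning drew counts without replacement to 1358383. Symbols came from the study's supplementary lists (366 transcripts) and from GENCODE (145). The members and lists were chosen with earlier results of these data known. Named transcripts were both members, the 3 closest to each by Pearson's r (and the closest with symbols) over 25 and over 9 oocytes, and every listed gene that could be named. Tools were R 4.3.3, Python 3.11.15, numpy 2.4.6, scipy 1.17.1, pandas 2.3.3 and matplotlib 3.10.9.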

Additional observations from a re-analysis of the deposited data

Results flagged for a closer look

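In SN oocytes grouped by mouse, 3 oocytes stood apart from the others of their group because all others had no count. *Kcnip4* was at 0.28 CPM in oocyte C-13 of mouse C and at 0.3 CPM in oocyte D-12 of mouse D, each from 1 count, and *Deup1* was at 1.3 CPM in oocyte C-16 of mouse C, from 3 counts. In a group of zeros any single count meets the criterion for an oocyte that stands apart. Of 9 groups examined, 3 met it, and all 3 were such groups of zeros, so the number is not set against a rate expected by chance.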

How the results depend on the processing

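The oocytes carry no replicate number that the stages share, so no replicate block could be fitted. With mouse as a covariate edgeR called 2257 transcripts between the stages, against 2245 without it. Over 128 combinations of a result and an alternative, 124 kept the direction and the side of the threshold of the reported value or stayed close to it. For counts of calls, close meant within a set factor and not within an error. The calls between the stages ran from 2147 to 2705, and all of these counted as kept. The 128 include the differences of the stage effect between the mice for both transcripts, which are not read here. The count that edgeR called between the mice was 3 without the filter on low counts (0 with it). The difference in *Kcnip4* between the mice among NSN oocytes ranged from 4.51 to 8.43 CPM when each NSN oocyte was left out in turn, and without D-30 its exact permutation p was 0.0357, with a range of 0.0357 to 0.171 over these. That in *Deup1* ranged from 3.84 to 6.82 CPM, and its exact permutation p from 0.0714 to 0.179. The counts of calls between the mice and of stage effects that differed between them were 0 to 0 over the same omissions. With at least 2 counts required, *Kcnip4* was found in 0 SN oocytes. *Deup1* in mouse D had a pooled SN to NSN ratio of 0. The causes were not tested. Depth limits the SN values, since 3 counts are up to 2.21 CPM in the smallest library.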
